A study of Mus musculus with 12 samples.

Results

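This account covers the promoter regions that carried histone H2A.Z in mouse spermatogenic cells both with a deleted and with an intact Ino80 gene, and that were also occupied by the INO80 chromatin remodeller. H2A.Z peaks of the Ino80cKO and Ino80WT lists that overlapped by at least 1 bp were joined into regions. A region was kept as a member when it held peaks of both genotypes, overlapped an INO80 peak and lay within 1 kb of either end of a protein-coding gene. Members were thus chosen by the listed positions of all 3 peak lists and of gene ends. The rule was met by 10372 of 35393 H2A.Z regions of the series. Of the remainder, 2199 shared regions at gene ends had no INO80 peak, and 3982 shared regions with INO80 lay farther from any gene end. A member region was found at 11063 of 21887 protein-coding genes, or 50.5% (95% Wilson interval 49.9% to 51.2%, which like all intervals here covers counting error only).

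The study profiled chromatin of spermatogenic cells at postnatal day 18 by ChIP-seq, with 2 libraries in each group. H2A.Z was precipitated from Ino80cKO cells, in which a Stra8-Cre driver had deleted Ino80 in the testis, and from Ino80WT cells. INO80 was precipitated from wild-type cells only, and each ChIP group had its own input DNA. All mice were of mixed background. The Stra8 promoter is active in germ cells, so the somatic cells of the testis are not the target of this Cre. The cells came from enzyme-digested tubules passed through a filter, with no sorting step in the labels, and therefore mixed germ cell stages and possibly somatic cells. Nothing in the labels ties the libraries to separate animals, and each group is represented here by a single list of peak positions without heights. No replicate error can be drawn from these lists and no test between genotypes was possible. The depth of the libraries and the peak threshold are unknown. The whole Ino80cKO list was the shorter and narrower, with 26199 peaks of median width 422 bp, against 33827 peaks of median width 460 bp in Ino80WT, and its part in the differences below was not tested. Excision of Ino80 cannot be read from H2A.Z peak positions. Fewer cells carrying H2A.Z at a site and less H2A.Z per cell cannot be told apart.

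The histone variant H2A.Z flanks the transcription start of active and poised genes, where it marks the nucleosomes on either side of the nucleosome-depleted start. The SRCAP and TIP60 complexes exchange H2A for H2A.Z. INO80 is a large ATP-driven remodeller built on the Ino80 ATPase, with actin-related proteins and the RuvB-like helicases among its subunits, that slides nucleosomes and places the first nucleosome downstream of the start in yeast. Whether it also removes H2A.Z has been debated. In male germ cells INO80 is known to be needed for meiosis.

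Printed first are 7 promoters of members, chosen for the patterns described below. Each run holds 250 bases before the annotated start and 50 from it on, is written 5′ to 3′ on the gene's own strand, and comes from the promoter table of RefSeq on GRCm38.p6, a patch of the mm10 assembly. Capitals mark CpG dinucleotides. Ezh2, encoding the methyltransferase of polycomb repressive complex PRC2, and Tdrd5, encoding a Tudor-domain protein of the piRNA pathway, stand for CpG-rich promoters with H2A.Z widths within 1.5-fold of each other in both genotypes. The Ezh2 run lies on the minus strand at chr6:47594981-47595280 and holds 31 CpG. The Tdrd5 run lies on the minus strand at chr1:156303299-156303598 and holds 48 CpG.

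Ezh2: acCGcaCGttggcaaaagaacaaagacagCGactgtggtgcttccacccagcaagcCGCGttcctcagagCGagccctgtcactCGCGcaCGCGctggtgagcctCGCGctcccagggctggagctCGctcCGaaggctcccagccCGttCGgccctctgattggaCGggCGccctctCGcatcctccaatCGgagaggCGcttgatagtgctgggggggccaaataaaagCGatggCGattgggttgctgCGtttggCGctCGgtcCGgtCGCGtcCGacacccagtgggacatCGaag
Tdrd5: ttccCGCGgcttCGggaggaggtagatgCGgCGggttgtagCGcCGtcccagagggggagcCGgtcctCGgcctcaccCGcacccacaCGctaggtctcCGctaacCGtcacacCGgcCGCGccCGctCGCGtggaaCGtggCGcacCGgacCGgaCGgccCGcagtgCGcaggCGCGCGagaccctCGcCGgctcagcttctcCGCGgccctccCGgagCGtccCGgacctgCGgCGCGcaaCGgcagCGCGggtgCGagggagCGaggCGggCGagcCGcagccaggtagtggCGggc

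Uchl5, which encodes a deubiquitinase bound to INO80 and the proteasome, and Kmt2c, which encodes an H3K4 methyltransferase, stand for promoters where the Ino80cKO peak was interrupted at the start. The Uchl5 run lies on the plus strand at chr1:143777028-143777327 and holds 36 CpG. The Kmt2c run lies on the minus strand at chr5:25498734-25499033 and holds 56 CpG, more than any of the other runs shown.

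Uchl5: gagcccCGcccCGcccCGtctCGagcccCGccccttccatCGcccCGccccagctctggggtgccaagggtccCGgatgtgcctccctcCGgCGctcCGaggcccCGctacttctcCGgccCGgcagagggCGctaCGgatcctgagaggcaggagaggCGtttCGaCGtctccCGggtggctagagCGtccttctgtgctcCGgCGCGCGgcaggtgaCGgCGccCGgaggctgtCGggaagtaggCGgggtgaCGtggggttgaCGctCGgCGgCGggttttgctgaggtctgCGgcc
Kmt2c: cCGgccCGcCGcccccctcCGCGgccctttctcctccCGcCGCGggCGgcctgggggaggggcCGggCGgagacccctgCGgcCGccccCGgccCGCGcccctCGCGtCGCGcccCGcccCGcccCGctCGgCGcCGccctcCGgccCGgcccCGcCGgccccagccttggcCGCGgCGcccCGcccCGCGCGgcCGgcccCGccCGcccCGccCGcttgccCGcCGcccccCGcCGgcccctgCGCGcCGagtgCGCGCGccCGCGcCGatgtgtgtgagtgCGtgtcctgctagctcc

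Csnk2a2, encoding a catalytic subunit of casein kinase 2, is shown for the reduction of its Ino80cKO peak to the smallest listed width. Its run lies on the minus strand at chr8:95488771-95489070 and holds 30 CpG. Rae1, encoding an mRNA export factor, and Plcxd3, encoding a phospholipase C-like protein, are shown for the opposite difference. The Rae1 run lies on the plus strand at chr2:172999867-173000166 and holds 26 CpG, and the Plcxd3 run lies on the plus strand at chr15:4375241-4375540 and holds 7 CpG.

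Csnk2a2: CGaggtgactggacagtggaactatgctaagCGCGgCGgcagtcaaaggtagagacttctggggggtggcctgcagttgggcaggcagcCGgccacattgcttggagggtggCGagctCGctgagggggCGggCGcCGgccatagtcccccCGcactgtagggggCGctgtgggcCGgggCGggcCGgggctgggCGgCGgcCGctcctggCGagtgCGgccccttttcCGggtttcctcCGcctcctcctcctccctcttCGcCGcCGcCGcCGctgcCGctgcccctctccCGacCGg
Rae1: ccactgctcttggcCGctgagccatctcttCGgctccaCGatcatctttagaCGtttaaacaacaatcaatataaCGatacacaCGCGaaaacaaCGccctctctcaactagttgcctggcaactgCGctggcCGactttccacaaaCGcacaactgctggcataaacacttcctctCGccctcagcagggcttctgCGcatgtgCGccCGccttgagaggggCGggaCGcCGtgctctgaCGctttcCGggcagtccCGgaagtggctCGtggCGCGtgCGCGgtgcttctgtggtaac
Plcxd3: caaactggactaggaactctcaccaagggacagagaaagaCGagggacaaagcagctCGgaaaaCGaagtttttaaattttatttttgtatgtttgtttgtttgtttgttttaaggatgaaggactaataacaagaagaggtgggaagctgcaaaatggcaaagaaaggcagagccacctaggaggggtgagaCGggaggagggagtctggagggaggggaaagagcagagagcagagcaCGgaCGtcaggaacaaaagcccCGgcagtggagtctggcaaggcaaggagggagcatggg

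Across members, H2A.Z covered less sequence in Ino80cKO cells than in Ino80WT cells at most regions, though seldom by much. The median covered width was 725.5 bp in Ino80cKO (quartiles 443 and 1019.25 bp) and 863 bp in Ino80WT (quartiles 559 and 1144 bp). The median ratio of Ino80cKO to Ino80WT width within a region was 0.902 (95% order-statistic interval 0.897 to 0.908), and 90% of regions lay between 0.415 and 1.32. Coverage was lower in Ino80cKO at 7407 members (71.4%), where 72.8% of all shared regions were lower. It was within 1.5-fold of Ino80WT at 8084 members (77.9%), where 69.2% of all shared regions were. A region was called narrower or wider when the widths differed by at least 1.5-fold. On this call 2002 members (19.3%) were narrower in Ino80cKO, where 26.6% of all shared regions were. Another 286 members (2.76%) were wider, where 4.21% of all shared regions were. The rule used both H2A.Z lists, so these figures describe the members and support nothing further.

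**Figure D1:**
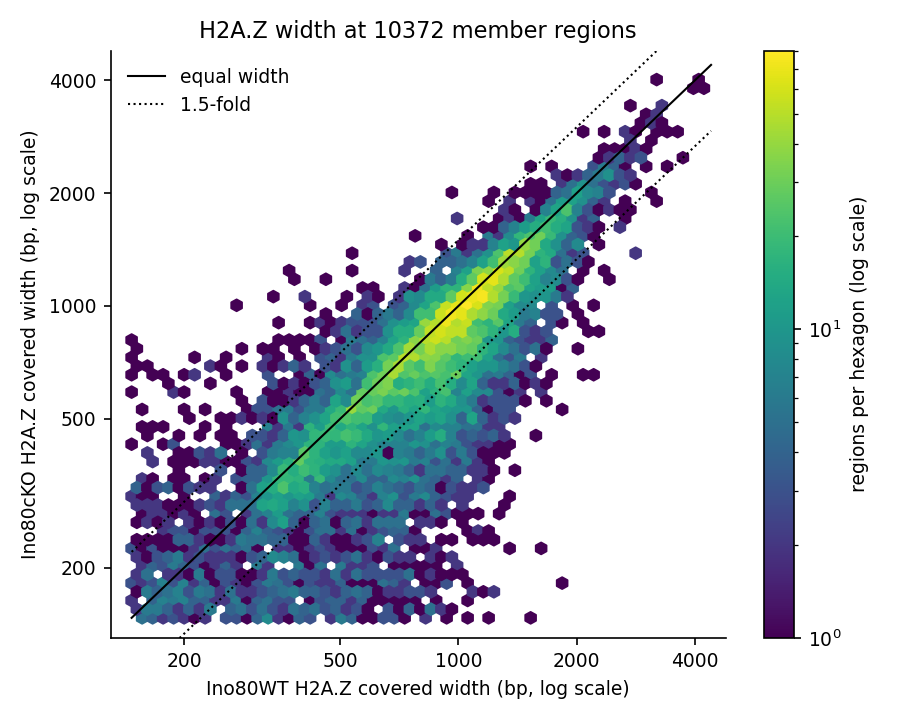
Each hexagon groups member regions by H2A.Z covered width in Ino80cKO (vertical axis, bp, log scale) and Ino80WT (horizontal axis, bp, log scale), and its colour gives the number of regions. The densest hexagons lie a little below the line of equal width, and more regions fall below the lower 1.5-fold line (2002) than above the upper (286).

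The Ino80cKO peaks mostly kept within the Ino80WT outline. Of all Ino80cKO base pairs in members, 93.5% lay inside Ino80WT peaks, whereas 80.8% of Ino80WT base pairs lay inside Ino80cKO peaks. The Ino80cKO peaks lay wholly inside the Ino80WT coverage at 4642 members (44.8%), and the reverse held at 1223 (11.8%). Over all shared regions the shares of base pairs were 92.1% and 76.4%, and the shares of regions 45.9% and 10.8%. The pattern was therefore not particular to members. The centres of the outlines were a median of 47 bp apart. Most members, 9582 (92.4%), held a single peak in each genotype, where 95.2% of all shared regions did.

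The widest Ino80cKO coverage was at the end of Tchh, the trichohyalin gene of hair follicles, on chr3:93443886-93448085. It measured 4020 bp in Ino80cKO and 4200 bp in Ino80WT, and it lay near the 3′ end of the gene. The others of the 8 widest lay at Smarca2, Efna5, Cdk6, Jade2, Etv1, Foxp1 and Csf2ra. Smarca2, the gene of the BRM ATPase of SWI/SNF remodellers, had 3896 bp in Ino80cKO and 3203 bp in Ino80WT. Etv1, an ETS transcription factor gene, had 3367 bp in Ino80cKO and 2777 bp in Ino80WT. Cdk6, the gene of a G1 cyclin-dependent kinase, had 3731 bp in Ino80cKO and 4031 bp in Ino80WT. All 8 were within 1.5-fold between the genotypes.

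The strongest reductions brought the Ino80cKO peak to or near the smallest width in any list, which is about the DNA of 1 nucleosome and is called the minimum width below. Trim46, which organises microtubules at the axon, had the minimum width in Ino80cKO and 1483 bp in Ino80WT at chr3:89244461-89245943, a region shared with Krtcap2, and a ratio of 0.0991. Csnk2a2, whose promoter is printed above, had the minimum width in Ino80cKO and 1059 bp in Ino80WT at chr8:95488649-95489707, while its INO80 peak covered 1202 bp. The annotated start was the outermost base of the remaining Ino80cKO peak, and the rest of that peak lay downstream. Rnps1, which links splicing to mRNA surveillance, had 172 bp in Ino80cKO and 1218 bp in Ino80WT. Ier2, an immediate early gene, had 172 bp in Ino80cKO and 1175 bp in Ino80WT. The other named regions of low ratio lay at Plcxd1, Bcan, Nxph4 and Hspa1a. The Bcan region lay near the 3′ end of the gene, 11900 bp from its annotated start, so it is not at a promoter. Hspa1a has a near-identical neighbouring copy, so reads may have been split or misplaced there and its value is uncertain.

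At the other extreme the Ino80WT peak was the one near the smallest width. Sptssb, encoding a subunit of serine palmitoyltransferase, had 823 bp in Ino80cKO and the minimum width in Ino80WT at chr3:69860241-69861063, a ratio of 5.60. Sycp1, the transverse filament gene of the synaptonemal complex, had 640 bp in Ino80cKO and the minimum width in Ino80WT at chr3:102935447-102936086. Rae1 had 691 bp in Ino80cKO and 152 bp in Ino80WT at chr2:172999830-173000520, and Plcxd3 had 649 bp in Ino80cKO and 162 bp in Ino80WT at chr15:4375487-4376135. At both printed promoters the annotated start was covered in Ino80cKO and not in Ino80WT. The others were Calb2, Acvrl1, Bbs1 and Csnk1d. All 8 left the set when the narrowest Ino80WT peaks were dropped to match the length of the Ino80cKO list, because that step removes these Ino80WT peaks.

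The position of H2A.Z relative to the start was followed at genes with an annotated start in the promoter table, which holds 21263 starts of 17492 protein-coding genes and none on chromosome 18. Of 8101 members whose genes all have one, 5835 (72.0%) held a start and 7715 (95.2%) lay within 1 kb of one. Only 192 (2.37%) were near a 3′ end alone. Among 1733 such regions without INO80, 844 (48.7%) held a start and 174 (8.71% to 11.5%) were near a 3′ end alone. Gene ends entered the rule for both sets, but which end was not part of it.

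Only starts inside a region were followed, so every start was covered by H2A.Z in either genotype or both. High coverage at the start and a fall with distance were set by this choice and are no finding, also in regions without INO80. Coverage in both genotypes was highest just downstream of the start. At 7152 starts inside members, the share covered peaked at 92.1% in Ino80cKO, 120 bp downstream, and at 97.9% in Ino80WT, 60 bp downstream. INO80 peaked at 91.1%, also 120 bp downstream. The Ino80cKO share was closest to the Ino80WT share 180 bp downstream, at 0.951 of it, and lowest within 600 bp at 600 bp upstream, at 0.754. By this ratio the genotypes therefore differed least shortly downstream of the start. Away from there the ratio fell on both sides, to 0.815 at 600 bp downstream, and 600 bp was the limit of the range searched. In regions without INO80 the order was the same, with ratios of 0.914 at 120 bp downstream and 0.611 at 600 bp upstream.

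**Figure D2:**
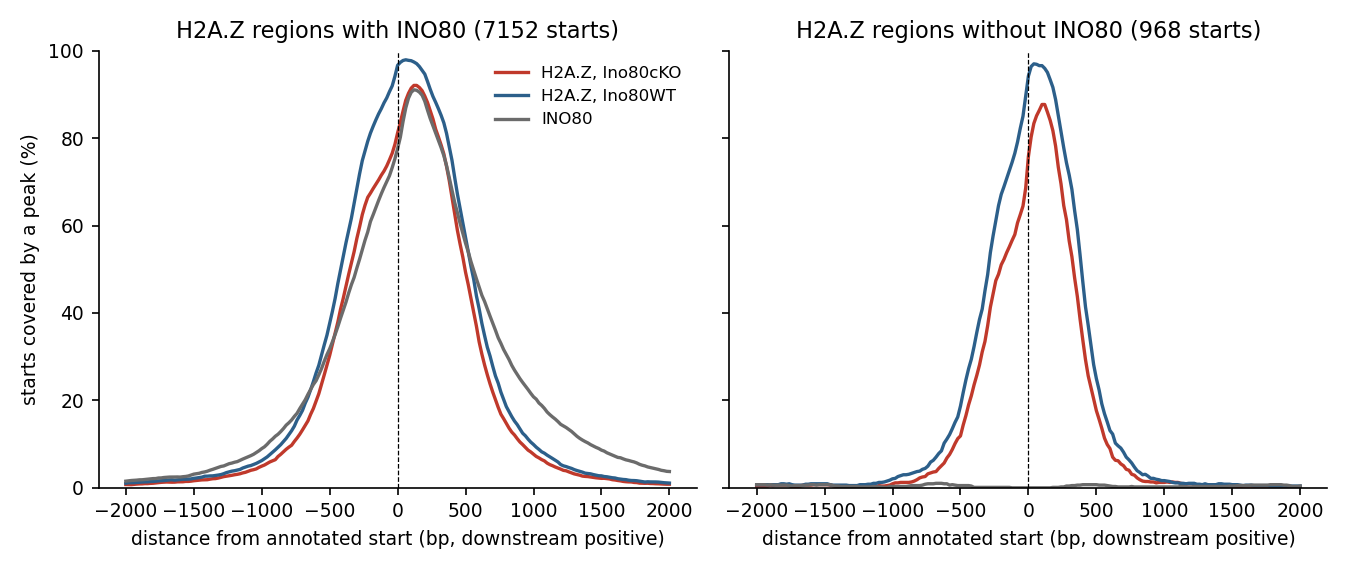
Lines give the percent of annotated starts (vertical axis) covered by a listed peak at each distance from the start (horizontal axis, bp, downstream positive), for 7152 starts in members (left) and 968 starts in shared promoter regions without INO80 (right). In members the Ino80cKO line runs below the Ino80WT line on both sides of the start. Within 600 bp, Ino80cKO coverage as a ratio to Ino80WT coverage, which is not drawn, is highest just downstream of the start in both panels. The INO80 line of members extends farthest downstream.

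The start base itself was covered by H2A.Z at 5808 of these starts in Ino80cKO (81.2%) and at 6914 in Ino80WT (96.7%), and by INO80 at 5552 (77.6%). It was covered in Ino80WT alone at 1344 starts (18.8%), where 19.0% of starts in all shared regions were, and in Ino80cKO alone at 238 (3.33%). Among those 1344 starts, Ino80cKO H2A.Z remained only downstream at 735 (54.7%), only upstream at 195 (14.5%) and on both sides at 414 (30.8%). INO80 lay over 810 of them (60.3%). Starts in regions without INO80 were covered in Ino80WT alone at 234 of 968 (24.2%, 21.6% to 27.0%), and among these H2A.Z remained on both sides at 29 (12.4%, 8.77% to 17.2%). The corresponding interval in members was 28.4% to 33.3% and did not overlap it. The regions also differed in width, with Ino80WT medians of 863 bp in members and 496 bp in regions without INO80. At matched Ino80WT width the share of starts covered in Ino80cKO was similar in the sets, with overlapping intervals. At 301 to 500 bp it was 75.6% both in members (71.2% to 79.5%) and without INO80 (68.6% to 81.5%), and at 901 to 1200 bp it was 83.2% (81.7% to 84.7%) in members and 81.5% (74.8% to 86.7%) without INO80. The share with H2A.Z on both sides was not matched for width.

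Interrupted peaks were counted as well. The starts in Ino80cKO gaps given here are among those above with H2A.Z on both sides, so they are not a separate observation. At 680 members (6.56%) a single Ino80WT peak faced 2 or more Ino80cKO peaks, where 4.05% of all shared regions did. The reverse held at 103 members (0.993%) and at 0.677% of all shared regions. In 666 of the 680 members the Ino80cKO peaks numbered exactly 2. The gap between these had a median of 300 bp (quartiles 271 and 376.75 bp, lowest 251 bp, which is the smallest gap between neighbours in the lists). The Ino80WT peak bridging it had a median width of 1241 bp. Among 497 with an annotated start, the start lay in the gap at 337 (67.8%, 63.6% to 71.8%), and the gap centre lay a median of 61 bp upstream of the start. The gap took up a median of 25.9% of the span of these regions. The share of starts in a gap was not counted in regions without INO80. The upstream Ino80cKO peak had a median width of 315 bp and the downstream peak 396 bp. INO80 covered the whole gap at 367 of the 666 (55.1%), part of it at 230 (34.5%) and none at 69 (10.4%). Interruption in the other direction, with 1 Ino80cKO peak over 2 Ino80WT peaks, occurred at 101 members, and the start lay in the gap at 39 of 67.

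Uchl5 and Kmt2c show the arrangement. At chr1:143776438-143777944 the Uchl5 region, shared with Ro60, had 2 Ino80cKO peaks with 1052 bp in all and 1 Ino80WT peak of 1373 bp. A gap of 326 bp held the Uchl5 start and lay wholly under an INO80 peak of 1088 bp. At chr5:25497730-25500366 the Kmt2c region had 2 Ino80cKO peaks with 2151 bp in all and 1 Ino80WT peak of 2637 bp. Its gap of 294 bp held the start and lay wholly under an INO80 peak of 2136 bp. At both starts the base was covered in Ino80WT and by INO80 but not in Ino80cKO.

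**Figure D3:**
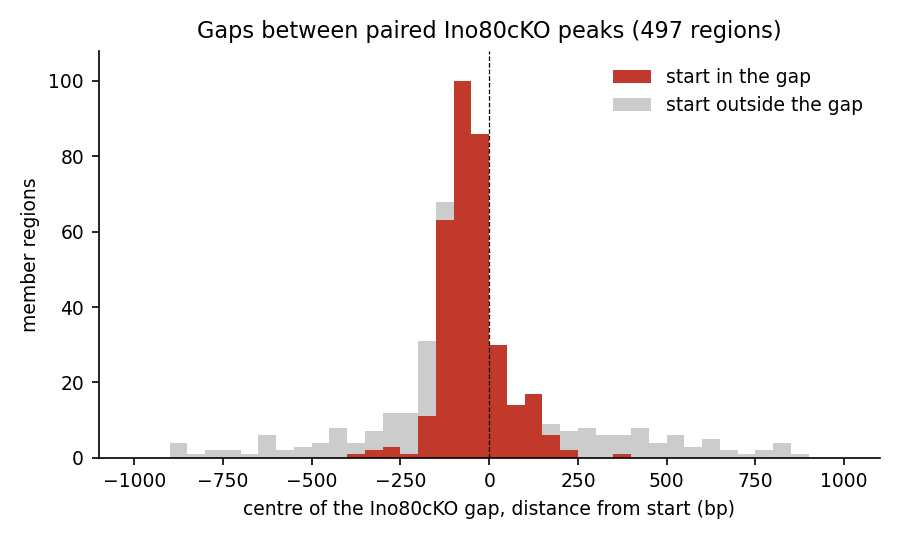
Bars count the member regions (vertical axis) with 2 Ino80cKO peaks under 1 Ino80WT peak by the distance of the gap centre from the annotated start (horizontal axis, bp, bins of 50 bp), in red where the start lies in the gap and in grey where it lies outside, stacked. Of 497 regions, 337 have the start in the gap and most gap centres lie just upstream of it, and 11 regions beyond 1000 bp are not drawn.

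The share of interrupted members followed width. It was 0 of 588 members of up to 300 bp in Ino80WT (upper limit 0.649%), 7.86% at 901 to 1200 bp and 43.5% (31.9% to 55.9%) above 2500 bp. At matched Ino80WT width, members were not interrupted more often than promoter regions without INO80 beyond counting error. The shares at 701 to 900 bp were 4.46% (3.61% to 5.50%) in members and 4.18% (2.59% to 6.68%) without INO80. At 1201 to 1600 bp they were 14.3% (12.6% to 16.1%) in members and 27.5% (16.1% to 42.8%) of 40 regions without INO80. Divergent promoters, where starts on opposite strands share a region, were interrupted at 86 of 465 (18.5%, 15.2% to 22.3%). Members with starts on 1 strand were interrupted at 422 of 5501 (7.67%, 7.0% to 8.40%). The median Ino80WT width was 1035 bp at divergent members and 964 bp at the others. Both were called narrower at nearly equal shares, 19.6% and 19.7%.

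At the 5501 members with starts on 1 strand, the outer edges were compared. H2A.Z reached a median of 313 bp upstream and 529 bp downstream of the start in Ino80cKO, and 369 bp upstream and 568 bp downstream in Ino80WT. The Ino80cKO edge was shorter by at least the minimum width upstream at 1180 members (21.5%, 20.4% to 22.6%) and downstream at 1000 (18.2%, 17.2% to 19.2%). It was longer by as much upstream at 271 (4.93%) and downstream at 257 (4.67%). INO80 reached a median of 266 bp upstream and 611 bp downstream, and it extended farther downstream than upstream at 4596 members (83.5%). H2A.Z did so at 4115 members in Ino80cKO (74.8%) and at 4059 in Ino80WT (73.8%).

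INO80 peaks were about as wide as the H2A.Z they overlapped, but much more variable. Their median width was 855 bp, with quartiles of 470 and 1462 bp and a highest value of 10631 bp at Tnrc18. INO80 covered more sequence than Ino80cKO H2A.Z at 6302 members (60.8%) and more than Ino80WT H2A.Z at 5280 (50.9%). It spanned the whole H2A.Z region at 3364 members (32.4%), lay inside it at 3735 (36.0%) and was offset to a side at 3273 (31.6%). Members accounted for 10260 of 18139 INO80 peaks (56.6%). At most of these an INO80 peak lay under a single member, but 297 lay under 2 and 4 under 3 or more.

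The share of narrower members was higher where INO80 was small relative to H2A.Z. Where INO80 covered up to 0.25 of the Ino80WT width, 29.9% (25.6% to 34.6%) of 398 members were called narrower. Where it covered 0.75 to 1 of that width the share was 15.0% (13.4% to 16.7%) of 1890 members, and where it covered more than 2 times the width it was 19.2% (17.4% to 21.0%) of 1825. Ino80WT width is part of both measures, so this is a description without a test. By INO80 width alone, 23.3% (21.8% to 24.9%) of 2834 members with INO80 under 500 bp and 15.7% (13.6% to 18.1%) of 1007 members with 2000 to 2999 bp were called narrower. Among 411 members with 3000 bp or more the share was 20.7% (17.0% to 24.9%), so it did not fall throughout with INO80 width. The median Ino80WT width was 654 bp among those with INO80 under 500 bp and 1155 bp among those with 2000 to 2999 bp.

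Most of the 8 members with the widest INO80 lay at genes of developmental transcription factors or signals, and their H2A.Z was often narrow. Olig2, encoding a basic helix-loop-helix factor of the neural tube, had INO80 over 7698 bp and H2A.Z over 743 bp in Ino80cKO and 680 bp in Ino80WT at chr16:91226462-91227327. Lhx1, a LIM homeobox gene, had INO80 over 7024 bp and H2A.Z over 433 bp in Ino80cKO and 416 bp in Ino80WT. Wnt7b, a Wnt ligand gene, had INO80 over 7776 bp and H2A.Z over 575 bp in Ino80cKO and 1665 bp in Ino80WT. Ebf2 had 2 members, each with 8895 bp of INO80. The H2A.Z of the first covered 237 bp in Ino80cKO and 193 bp in Ino80WT, and that of the other 245 bp in Ino80cKO and 579 bp in Ino80WT. Tnrc18, which had the widest INO80, had H2A.Z over 318 bp in Ino80cKO and the minimum width in Ino80WT. That region lay 5797 bp from the nearest start listed for the gene. Lbx1, a homeobox gene, had 154 bp in Ino80cKO and 172 bp in Ino80WT, and Zfp503 had 1083 bp in Ino80cKO and 1773 bp in Ino80WT. Of the 8 members, 5 lay below the lower quartile of Ino80cKO width over all members, which is 443 bp. INO80 of 3 kb or more occurred at 411 members (3.96%). Their H2A.Z had medians of 944 bp in Ino80cKO and 1134 bp in Ino80WT. Over all members the medians were 725.5 bp in Ino80cKO and 863 bp in Ino80WT. Narrow H2A.Z was therefore not general under wide INO80.

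Members were compared with their closest counterparts at matched Ino80WT width. Regions without INO80 were narrower in general, with medians of 358 bp in Ino80cKO and 496 bp in Ino80WT, and 29.0% of them were called narrower in Ino80cKO. Within the group of 501 to 700 bp in Ino80WT, 23.2% (21.2% to 25.3%) of 1624 members were called narrower, against 40.3% (35.8% to 44.9%) of 452 promoter regions without INO80 and 28.7% (25.8% to 31.8%) of 850 distal regions with INO80. At up to 300 bp the shares were 6.97% in members, 7.54% in promoter regions without INO80 and 11.0% in distal regions. At 1201 to 1600 bp they were 16.2% (14.4% to 18.1%) in members, 47.5% (32.9% to 62.5%) of 40 promoter regions without INO80 and 17.8% (14.2% to 22.2%) in distal regions. In each width group from 301 to 1600 bp the interval of members lay below that of promoter regions without INO80. Peak height is not in the lists, so the strength of H2A.Z within a width group could not be matched.

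**Figure D4:**
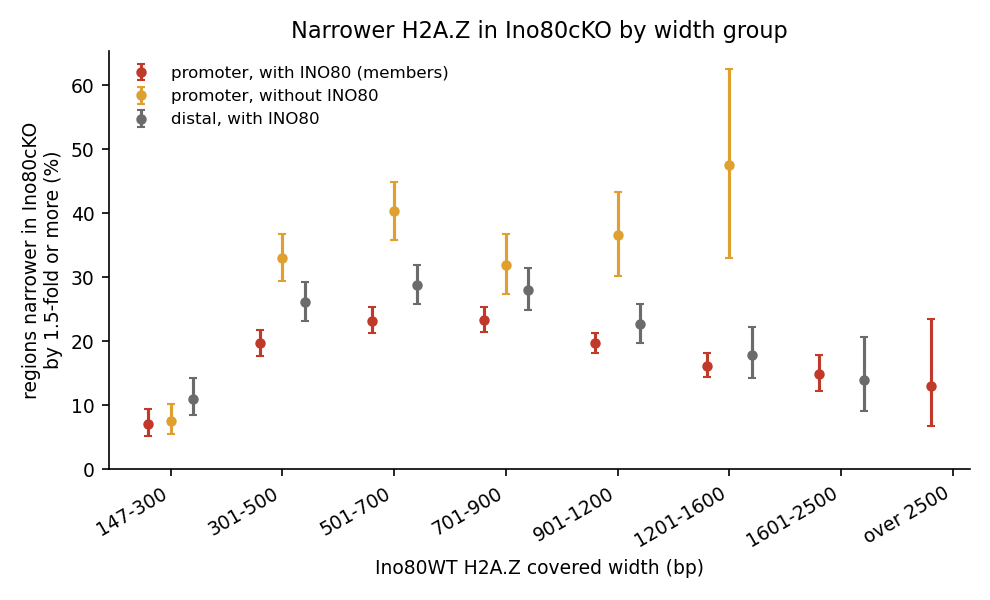
Points give the percent of shared H2A.Z regions called narrower in Ino80cKO by at least 1.5-fold (vertical axis) within groups of Ino80WT covered width (horizontal axis, bp), for members, promoter regions without INO80 and distal regions with INO80, with 95% Wilson intervals. Members lie below promoter regions without INO80 from 301 to 1600 bp, for example 23.2% and 40.3% at 501 to 700 bp. Groups of fewer than 20 regions are not drawn.

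Gene groups by role were read from 22 lists of 751 entries, of which 4 matched through an older symbol. Presence of a member was counted against 50.5% of all protein-coding genes. Narrower and wider calls used the member with the widest Ino80cKO coverage at each gene, and were set against 18.6% narrower and 2.72% wider over all 11063 genes with a member, whose median ratio was 0.907. Interrupted peaks occurred at 793 of these genes (7.17%). Neighbouring genes often share a region, as 1569 members (15.1%) lay at more than 1 gene, so genes are not independent.

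The machinery that places H2A.Z carried it at its own promoters. Of 21 SRCAP and TIP60 genes, with the H2A.Z genes and the H2A.Z chaperone gene Anp32e among them, 19 (90.5%) had a member, and only Mrgbp and Morf4l2 had none. The median ratio was 0.943, with 3 narrower and 2 wider. Trrap, the scaffold gene of TIP60, had 1218 bp in Ino80cKO and 1396 bp in Ino80WT. Meaf6 had 1199 bp in Ino80cKO and 1363 bp in Ino80WT, and Epc2 had 1122 bp in Ino80cKO and 1155 bp in Ino80WT. H2az1, encoding the main H2A.Z protein, had 483 bp in Ino80cKO and 372 bp in Ino80WT under an INO80 peak of 1704 bp.

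Of 15 genes for the INO80 complex, 10 (66.7%) had a member, with a median ratio of 0.853, 3 narrower and none wider. Those without one were Ino80c, Ruvbl1, Ruvbl2, Tfpt and Mcrs1. The Ino80 promoter itself had 487 bp in Ino80cKO and 863 bp in Ino80WT under an INO80 peak of 1390 bp, and was called narrower at a ratio of 0.564. Ino80d had 803 bp in Ino80cKO and 1676 bp in Ino80WT at chr1:63113187-63114878. Actl6a, encoding an actin-related subunit shared with other remodellers, had 643 bp in Ino80cKO and 688 bp in Ino80WT. Yy1, encoding a DNA-binding partner of the complex, had 331 bp in Ino80cKO and 315 bp in Ino80WT under INO80 of 2612 bp.

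Genes of the polycomb repressors and of H3K4 methylation, which set opposing marks at developmental genes, differed in their calls. Of 36 polycomb genes 32 (88.9%) had a member, all but Rbbp7, Cbx7, Kdm2b and Scml2, with a median ratio of 0.977, 2 narrower and 2 wider. Ezh2 had 1620 bp in Ino80cKO and 1613 bp in Ino80WT at chr6:47594143-47595805, and INO80 covered 1606 bp there. Pcgf5 had 1600 bp in Ino80cKO and 1492 bp in Ino80WT, and Cbx6 had 1500 bp in Ino80cKO and 1351 bp in Ino80WT. Of 19 H3K4 genes 14 (73.7%) had a member, with a median ratio of 0.813, 6 narrower and 1 wider. Kmt2a, Ash2l, Dpy30, Kdm5c and Kdm5d had none. Besides Kmt2c, Kdm5b, an H3K4 demethylase gene, had 1126 bp in Ino80cKO and 1388 bp in Ino80WT, and Wdr5, a shared scaffold gene of the methyltransferases, had 1001 bp in Ino80cKO and 1135 bp in Ino80WT. The difference between the lists was not tested, and the intervals of the narrower shares, 1.73% to 20.1% for polycomb and 21.4% to 67.4% for H3K4 genes, rest on few genes.

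Cytosolic ribosomal protein genes had the lowest median Ino80cKO width of the lists with more than 1 member. Of 59 genes 44 (74.6%) had a member, with medians of 344.5 bp in Ino80cKO and 546 bp in Ino80WT and a median ratio of 0.811. Called narrower were 18 of 44 (40.9%, 27.7% to 55.6%) and wider 2. Of 21 of their starts inside members, 5 (23.8%, 10.6% to 45.1%) were covered in Ino80cKO and 21 in Ino80WT, while 81.2% of all starts in members were covered in Ino80cKO. The widest were not among the narrower. Rpl7 had 1615 bp in Ino80cKO and 1622 bp in Ino80WT in a region shared with Rdh10, and Rpl19 had 1286 bp in Ino80cKO and 1628 bp in Ino80WT. Rpl13, chosen here after its values were seen, had 155 bp in Ino80cKO and 725 bp in Ino80WT at chr8:123102067-123102791. Rps24, chosen in the same way, had 168 bp in Ino80cKO and 761 bp in Ino80WT. Ribosomal protein genes have many near-identical processed copies, so reads just downstream of their starts may have been placed elsewhere and these values are uncertain.

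The proteasome list had similar values. Of 31 genes 25 (80.6%) had a member, with medians of 407 bp in Ino80cKO and 648 bp in Ino80WT, a median ratio of 0.796, 9 narrower (36.0%, 20.2% to 55.5%) and 1 wider. The start was covered in Ino80cKO at 2 of 11 and in Ino80WT at all 11. Psma7, a core particle gene, had 1232 bp in Ino80cKO and 1493 bp in Ino80WT, and Psmb7 had 947 bp in Ino80cKO and 881 bp in Ino80WT. Other housekeeping lists had median ratios nearer to that of all genes, though their widths differed. Mitochondrial ribosomal protein genes had a member at 61 of 73 (83.6%), with a ratio of 0.916, 12 narrower and 3 wider. Spliceosome genes had one at 29 of 35 (82.9%), with medians of 362 bp in Ino80cKO and 387 bp in Ino80WT, a ratio of 0.952, 6 narrower and 3 wider. RNA polymerase II and Mediator genes had one at 32 of 40 (80.0%), with a ratio of 0.962, 7 narrower and none wider. Respiratory chain genes had one at 40 of 55 (72.7%), with a ratio of 0.965, 10 narrower and none wider, and INO80 covered the start at 3 of 25 starts there. DNA replication genes had one at 28 of 40 (70.0%), with a ratio of 0.897, 7 narrower and 1 wider.

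Single genes of these lists show the range. Mrpl40, sharing its region with the histone chaperone gene Hira, had 1462 bp in Ino80cKO and 1597 bp in Ino80WT. Polr2b, the gene of the second largest polymerase II subunit, had 1510 bp in Ino80cKO and 1763 bp in Ino80WT under an INO80 peak of 253 bp. Uqcrc2, of respiratory complex III, had 1360 bp in Ino80cKO and 916 bp in Ino80WT. Lig1, encoding a DNA ligase of replication, had 1422 bp in Ino80cKO and 1468 bp in Ino80WT. Snrpd3, an Sm protein gene, had 2 Ino80cKO peaks of 1028 bp in all and 1 Ino80WT peak of 1318 bp.

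Germ cell genes were grouped by stage. Of 30 spermatogonial genes 20 (66.7%) had one, with medians of 1011 bp in Ino80cKO and 1031.5 bp in Ino80WT, a ratio of 0.984, 3 narrower and 1 wider. Egr4 had 2389 bp in Ino80cKO and 2376 bp in Ino80WT, and Sall4, a stem cell zinc finger gene, had 1880 bp in Ino80cKO and 1541 bp in Ino80WT. Dmrt1, which controls entry into meiosis, had 1675 bp in Ino80cKO and 1590 bp in Ino80WT. Of 50 genes of meiotic recombination and synapsis 30 (60.0%) had one, with a ratio of 0.939, 2 narrower and 1 wider. Another 10 had shared H2A.Z without INO80. Rec114, needed for meiotic double-strand breaks, had 1983 bp in Ino80cKO and 2109 bp in Ino80WT in a region shared with Hcn4. Rad21l, a meiotic cohesin gene, had 1194 bp in Ino80cKO and 1119 bp in Ino80WT. Ythdc2, needed for meiotic entry, had 1056 bp in Ino80cKO and 1125 bp in Ino80WT. The wider gene was Sycp1, given above.

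Of 36 DNA damage response genes 22 (61.1%) had a member, with a ratio of 0.788, 7 narrower and none wider. Rad1, of the 9-1-1 clamp, had 1030 bp in Ino80cKO and 976 bp in Ino80WT, and Bard1, the partner of Brca1, had 958 bp in Ino80cKO and 1160 bp in Ino80WT. Of 26 piRNA pathway genes 14 (53.8%) had one, with a ratio of 0.907, 4 narrower and none wider. Mybl1, encoding the transcription factor of pachytene piRNA genes, had 1495 bp in Ino80cKO and 1420 bp in Ino80WT. Tdrd5 had 940 bp in Ino80cKO and 1086 bp in Ino80WT at chr1:156302782-156303881, and Tdrd3 had 1412 bp in Ino80cKO and 1555 bp in Ino80WT. Of 40 spermiogenesis genes 12 (30.0%, 18.1% to 45.4%) had one, with a ratio of 0.833, 3 narrower and none wider. Tbpl1, a TBP-related factor gene of spermatids, had 1411 bp in Ino80cKO and 1334 bp in Ino80WT. Tssk6 shared its region with Ndufa13, so the H2A.Z there cannot be assigned to either gene.

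Developmental regulators of other tissues were members at 55 of 74 (74.3%), under the widest INO80 peaks of any list with more than 1 member, at a median of 2886 bp. Their H2A.Z had medians of 729 bp in Ino80cKO and 894 bp in Ino80WT and a median ratio of 0.821. Called narrower were 17 of 55 (30.9%, 20.3% to 44.0%) and none wider. Irx5 had 2910 bp in Ino80cKO and 2374 bp in Ino80WT under INO80 of 5350 bp.

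Coverage of the start base was also counted by list. Of 8 starts of H3K4 genes in members, 3 were covered in Ino80cKO and 8 in Ino80WT, and of 19 starts of polycomb genes 17 were covered in Ino80cKO and 15 in Ino80WT. SRCAP and TIP60 genes had 4 of 8 covered in Ino80cKO and 8 in Ino80WT. Mitochondrial ribosomal protein genes had 28 of 39 covered in Ino80cKO and 37 in Ino80WT, and developmental regulators had 17 of 24 in Ino80cKO and 23 in Ino80WT. Meiotic genes had 14 of 16 covered in Ino80cKO and 16 in Ino80WT. The lists thus ranged from most starts covered in Ino80cKO, at polycomb and meiotic genes, to few, at cytosolic ribosomal protein and proteasome genes, with small numbers in each and no test between them.

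Markers of other testis cells were counted as a check on the cell preparation, though H2A.Z at a promoter does not show that the gene is expressed. Of 14 Sertoli cell markers 9 (64.3%) had a member, with a ratio of 0.932 and none called narrower or wider, and Gata4, Rhox5, Fshr and Trf were among those with none. Wt1 had 1343 bp in Ino80cKO and 997 bp in Ino80WT, Inha had 1403 bp in Ino80cKO and 1346 bp in Ino80WT, and Gdnf had 1241 bp in Ino80cKO and 1428 bp in Ino80WT. Only Lhcgr of 10 Leydig cell markers, Des of 7 peritubular myoid markers and Kdr of 10 blood and endothelial markers had one, and the defining genes Cyp11a1, Acta2 and Ptprc had none. Lhcgr had 327 bp in Ino80cKO and 323 bp in Ino80WT, Des 473 bp in Ino80cKO and 705 bp in Ino80WT, and Kdr 1170 bp in Ino80cKO and 939 bp in Ino80WT. Epidermal and digestive genes had a member at 6 of 30, with a ratio of 0.919, 1 narrower and none wider, and Apoa2 had 709 bp in Ino80cKO and 1187 bp in Ino80WT in a region shared with Tomm40l.

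**Figure D5:**
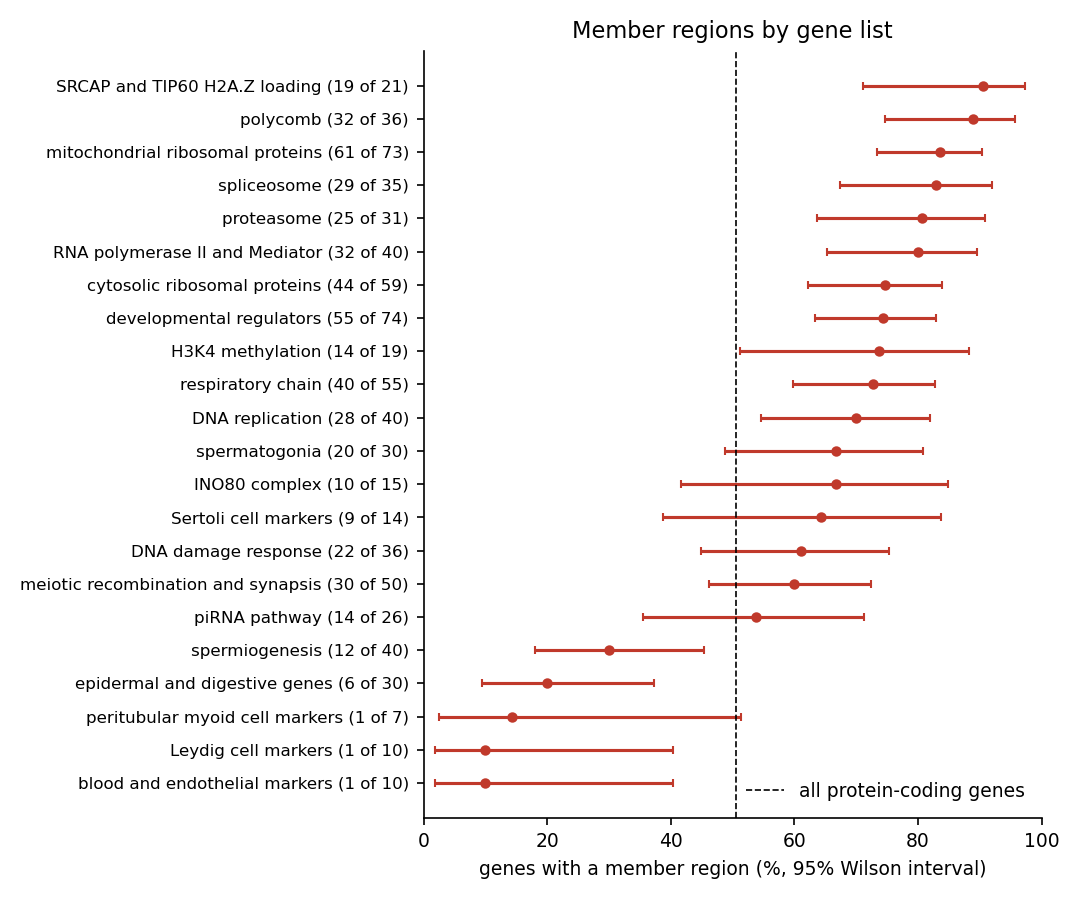
Points give the percent of the genes of each list that have a member region (horizontal axis) with 95% Wilson intervals, ordered from high to low down the page, and the dashed line marks 50.5% for all protein-coding genes. SRCAP and TIP60 genes (19 of 21) and polycomb genes (32 of 36) are at the top, and the lists of spermiogenesis, epidermal and digestive, peritubular myoid, Leydig, and blood and endothelial genes lie below the line.

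Gene families of sensory, immune and surface tissues had few members. Olfactory receptors had one at 3 of 1110 genes, vomeronasal receptors at 1 of 353, defensins at 0 of 71 (an upper limit of 5.13%), keratins at 6 of 53 and clustered protocadherins at 8 of 57. Families of broad expression had many, with Usp ubiquitin peptidases at 38 of 50 (76.0%), Rab GTPases at 44 of 59 (74.6%) and DEAD-box helicases at 39 of 53 (73.6%). Zinc finger genes named Zfp had one at 219 of 394 (55.6%) and lacked INO80 over shared H2A.Z at another 100. Solute carriers had one at 214 of 375 (57.1%), potassium channels at 52 of 94 (55.3%) and Tmem and Zdhhc genes at 173 of 262 (66.0%).

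On the X chromosome members were few, and so were shared H2A.Z regions of any kind. Of 380 shared regions on the X 173 were members, a share similar to the 10372 of 23485 over all chromosomes. A member lay at 177 of 966 X-linked genes (18.3%, 16.0% to 20.9%), against 10886 of 20665 autosomal genes (52.7%, 52.0% to 53.4%), and none of 256 Y-linked genes had one. X-linked members covered less, with medians of 543 bp in Ino80cKO and 576 bp in Ino80WT, against 728 bp in Ino80cKO and 866 bp in Ino80WT on autosomes. The median ratio was 0.924 on the X and 0.902 on autosomes, and 19.7% and 19.3% were called narrower.

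The members' promoters were rich in CpG, a property the rule did not use. The 300 bases around their 7152 starts had medians of 65.0% GC and 25 CpG, against 56.7% GC and 13 CpG at 968 starts in regions without INO80, and 4 CpG at 11718 starts in no H2A.Z region. A ratio of observed to expected CpG of at least 0.6 was reached by 83.7% of members' starts (82.9% to 84.6%), 46.5% of starts without INO80 (43.4% to 49.6%) and 47.7% of all 21263 promoters. Among members the median CpG number was 24 at starts in members called narrower, 25 within 1.5-fold and 22 in those called wider.

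Short motifs were searched in the same 300 bases on both strands, and a match is a description of letters only. The SP/KLF motif GGGCGG occurred at 74.6% of members' starts, 50.6% without INO80 and 46.2% of all promoters. The YY1 motif GCCATNTT occurred at 7.68% of members' starts (7.08% to 8.32%), 2.89% without INO80 (2.01% to 4.15%) and 6.37% of all promoters. Of 599 YY1 matches at members' starts, 251 (41.9%) began at or after the start base, in a stretch that holds 14.7% of the positions. On the gene's strand were 37.7% of the matches. The share at or after the start base was 39.1% over all promoters. By H2A.Z call, YY1 matches occurred at 9.40% of starts in members called narrower, 7.22% within 1.5-fold and 8.61% in those called wider. The NF-Y motif CCAAT occurred at 31.9% of members' starts, 44.2% without INO80 and 38.2% of all promoters, and the TATA motif TATAAA at 4.66% of members' starts, 6.30% without INO80 and 12.6% of all promoters. The ETS motif CCGGAAG occurred at 18.1% of members' starts, 22.5% without INO80 and 11.6% of all promoters. GGGCGG itself holds a CpG, and so do CCGGAAG and GCGGGAA. Of the printed promoters, Kmt2c has 12 matches of GGGCGG, Uchl5 4, Csnk2a2 3 and Rae1 1. Plcxd3 has 1 match of GCCATNTT.

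The remaining motifs differed less or were rarer. CACGTG, the MYC E-box, occurred at 10.7% of members' starts, 7.75% without INO80 and 7.84% of all promoters. GCGGGAA, an E2F motif, occurred at 717 of 7152 of members' starts, 7.75% without INO80 and 5.95% of all promoters. TAACNG, a MYB motif, occurred at 15.2% of members' starts, 23.8% without INO80 and 21.0% of all promoters, and GTTGCC, part of the RFX motif, at 12.3%, 15.4% and 12.6% of these. Under 4% of members' starts held the NRF1 motif GCGCATGCG (3.40%), the CRE motif TGACGTCA (3.38%) or the ZBTB33 motif CTCGCGAGA (1.29%).

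Regions next to the limits of the rule are given for description. Just inside the 1 kb window lay members at Sprn, Anks3 and Adra1b, from 996 to 999 bp from the gene end. Sprn had 344 bp in Ino80cKO and 265 bp in Ino80WT, Anks3 628 bp in Ino80cKO and 622 bp in Ino80WT, and Adra1b 880 bp in Ino80cKO and 812 bp in Ino80WT. Just outside lay regions at Shh, Tbc1d24 and Zbed3, from 1001 to 1004 bp. Shh had 1194 bp in Ino80cKO and 1454 bp in Ino80WT, Tbc1d24 398 bp in Ino80cKO and 412 bp in Ino80WT, and Zbed3 1235 bp in Ino80cKO and 1254 bp in Ino80WT. The smallest overlaps with INO80 were 6 bp at Slmap, 8 bp at Wdr44 and 11 bp at Fosl1. Slmap had 305 bp in Ino80cKO and 245 bp in Ino80WT, Wdr44 239 bp in Ino80cKO and 304 bp in Ino80WT, and Fosl1 257 bp in Ino80cKO and 445 bp in Ino80WT, so all 3 lay below the lower quartile of members in Ino80cKO. The smallest gaps to INO80 among regions left out were 16 bp at Arl5c and 35 bp at Xpnpep3 and Pafah1b2. In all, 72 members overlapped INO80 by less than the minimum width, and 45 regions left out had INO80 within that distance.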

How the data were processed

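ChIP-seq libraries of spermatogenic cells were grouped by their titles, with 2 libraries each for H2A.Z in Ino80cKO, H2A.Z in Ino80WT, INO80 and the input of each. Per the labels' protocols, chromatin was lightly fixed and cut with micrococcal nuclease, so outlines follow nucleosome positions as well as occupancy. The authors deposited 1 peak list per ChIP group, as bare positions on each chromosome without a score, fold or p-value. Per the submitters' processing notes, Bowtie2, SAMtools, deepTools and MACS2 and the build mm10 were used. The sources used here give no versions, peak threshold or control and not how libraries were combined, and depth is unknown. Whether a site is listed, and how wide, depends on these. Input and per-library values were not analysed here.

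Peaks were joined and joined to genes with Python 3.11.15, pandas 2.3.3 and numpy 2.4.6, and the number of joined regions was checked with bedtools 2.31.1. The joining was tested on simulated data. Covered width, the base pairs under a genotype's peaks in a region, stood in for strength. Shares have 95% Wilson intervals (scipy 1.17.1) and medians order-statistic intervals. With 1 list per genotype there was no test. Gene ends came from the RefSeq table of GRCm38.p6, which has no strand, and starts and sequences from the RefSeq promoter table. Members and gene lists were chosen with earlier results of these data known, so nothing here is independent support. Genes were named by rule: the 8 widest in Ino80cKO, the 8 lowest and 8 highest ratios (at least 500 bp in the wider genotype), the 8 widest INO80 peaks, up to 3 per list by Ino80cKO width, list genes with no member where 5 or fewer, and the 3 regions nearest each limit. List genes named beyond that rule (H2az1, Ino80, Yy1, Rpl13 and Rps24, and the markers Cyp11a1, Acta2 and Ptprc) were chosen after their values were seen. Alternatives changed the window, the overlap, the fold, the peak lists and the gene ends used. A few genes named by this rule are not reported here.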

Additional observations from a re-analysis of the deposited data

How the results depend on the processing

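The main counts and the median ratio depended little on the window or the overlap. With windows of 500 bp or 3 kb, an overlap of at least the smallest listed width, an Ino80WT list shortened to the length of the Ino80cKO list, or annotated starts only, members numbered from 8970 to 11462 and the median ratio of Ino80cKO to Ino80WT width stayed between 0.897 and 0.902. The lower fold tried gave 3447 narrower and 701 wider members, and a fold of 2 gave 892 narrower and 93 wider. Keeping the widest 50% of each list left 4941 members at 5433 genes, with 636 narrower, 58 wider, INO80 wider than Ino80WT H2A.Z at 3297 and a median ratio of 0.926. Keeping only genes whose ends lay over 2 kb from those of any other gene left 6710 members at 6353 genes, with 1179 narrower, 188 wider and a median ratio of 0.910. These counts fall because fewer peaks or genes enter. The share of genes with a member fell outside the Wilson interval of the main setting in 18 of 22 gene lists under the widest 50%. Under the separated gene ends, where fewer genes entered, it did so in 3 lists. Of 90 named regions, 42 left the set under the widest 50%, 33 where gene ends had to stand alone, 32 with annotated starts only, Tchh, Jade2, Wnt7b, Ino80d, Dmrt1 and Wt1 among them, and 11 with the shortened Ino80WT list. No paired analysis was possible because each group has a single list with no value per library, and for the same reason no library could be left out. Depth, unknown here, limits every width.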

Other observations

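The 192 members near a 3′ end and no annotated start had a median H2A.Z width of 566.5 bp in Ino80cKO and 695 bp in Ino80WT, a median ratio of 0.902, and INO80 over a median of 1100.5 bp. Tchh was the widest of them. After it came Prrt4, with 1801 bp in Ino80cKO and 1871 bp in Ino80WT, Cilp2, with 1725 bp in Ino80cKO and 1989 bp in Ino80WT, Lor, with 1579 bp in Ino80cKO and 1548 bp in Ino80WT, and Crygn, with 1563 bp in Ino80cKO and 1570 bp in Ino80WT. Tchh and Lor encode structural proteins of hair and skin. Prrt4, Cilp2 and Crygn were chosen after their values were seen. These regions met the rule by the gene end alone and are not promoters by their distance from a start listed in the promoter table.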
